A study of Sedum plumbizincicola and Sedum alfredii with 13 samples.

Results

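The roots of Sedum plumbizincicola, a succulent that accumulates cadmium (Cd) and zinc in its leaves, were compared after 3 days with 10 µM CdCl2 and after the same time with 0 µM, with 2 RNA-seq libraries (A and B) a dose. These 4 libraries, chosen by the organ, species and dose in their labels, belong to a series of 13 samples. Shoots of the species gave 4 more Illumina libraries by the same doses, and Sedum alfredii, labelled as its counterpart that does not hyperaccumulate, gave 1 library for each organ and dose. The submitters call the A and B libraries biological replicates without saying how many plants went into each. The p-values therefore measure a spread between libraries, pooled over the 8 root and shoot libraries of Sedum plumbizincicola. Expression is given for 66584 assembled transcript clusters, called transcripts below. Only the 29221 transcripts with at least 10 reads summed over the 4 Sedum alfredii libraries were considered, so that RNA seen in Sedum plumbizincicola alone was left out. They are called shared transcripts, and being seen in both species does not by itself show that a transcript is plant RNA.

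Cadmium has no known use in these plants and reaches root cells mainly through carriers meant for iron, zinc and other metals. In root cells it is bound by thiol-rich peptides such as phytochelatins, locked into vacuoles, held in cell walls or passed to the xylem for export to the shoot. Hyperaccumulators are known for fast transfer from root to shoot, in which heavy-metal pumping ATPases take part. The deposited IDs are component numbers (c, component, g, cluster) and the files do not pair them with gene names or sequences, so no role is given to any transcript below. For the same reason the labelled organs could not be checked against marker genes.

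The Cd-treated root libraries held 1260160 and 1628928 reads, against 1355330 and 2403858 in the untreated root libraries. Shared transcripts took 95.6% and 95.3% of the reads in Cd-treated roots, against 93.7% and 93.2% in untreated roots, and the part of this gap in the results below was not tested. Untreated root library A stood apart: its 10 most abundant transcripts took 15.3% of its reads, against 5.94% to 8.86% in the other 3 root libraries, and the count of calls is also given without it. The organ labels could be compared with the second species. Of 1235 shared transcripts at least 4-fold higher in roots than in shoots of Sedum alfredii at both doses, 948 were also called higher in roots of untreated Sedum plumbizincicola (76.8% of the 1235 and 22% of the 4311 so called), and 31 were called higher in its shoots.

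Few shared transcripts passed the test for a Cd response, and most of the changes were 4-fold or more. Of 17214 tested, 27 were called (0.157%), and they lay in 26 components. In Cd-treated roots 11 rose (0.0639% of those tested) and 16 fell (0.0929%). The test was edgeR's quasi-likelihood F-test, two-sided, on the 8 Sedum plumbizincicola libraries, with Benjamini-Hochberg adjustment over the 17214 and a threshold of 0.05. In all 27 the Cd-treated and untreated root libraries did not overlap. This alone is common here, since 16.8% of tested transcripts were higher and 15.8% lower without overlap. At an unadjusted p under 0.05, 396 transcripts were higher (2.3%) and 328 lower (1.91%), 4.21% in all. A fit of the 4 root libraries alone called 6 higher and 14 lower, all 20 among the 27. The number called ranged from 19 to 41 when 1 of the 8 libraries was left out, where a lone library of a group is assumed to vary like the other groups. Without untreated library A 23 were called higher and 18 lower, and 23 of the 27 were called again. Without untreated library B 11 were higher and 27 lower. Without treated library A 7 were higher and 16 lower, and without treated library B 7 were higher and 12 lower.

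**Figure D1:**
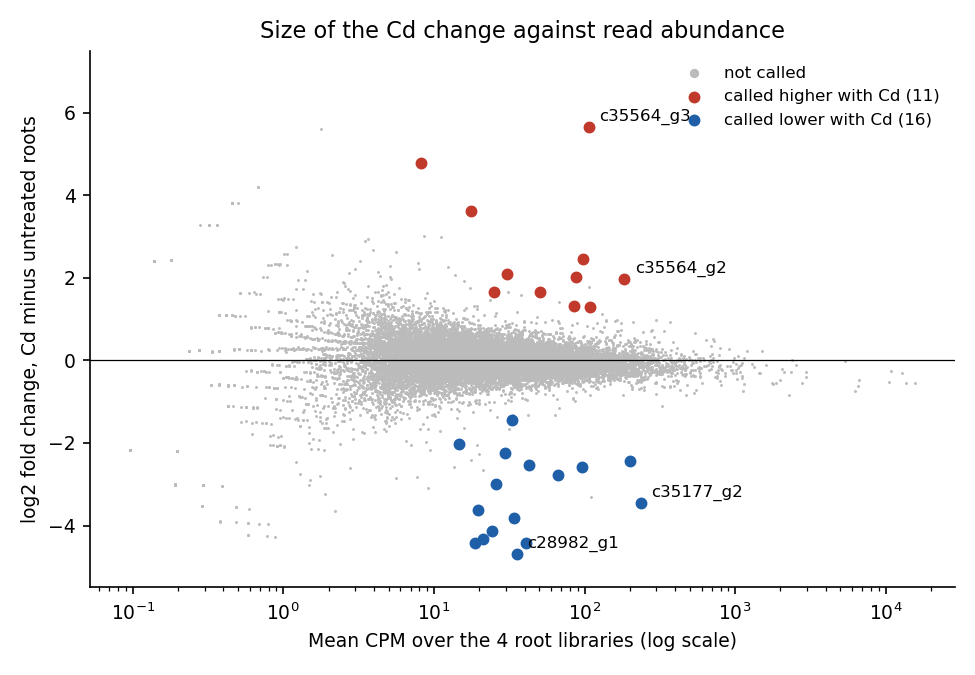
Log2 fold change, Cd-treated minus untreated roots of Sedum plumbizincicola, against the mean CPM over the 4 root libraries on a log scale, for the tested shared transcripts that had root reads. Coloured points are the 11 transcripts that rose and the 16 that fell, and no transcript below a mean of 5 CPM was called, although the widest scatter lies there.

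The largest rise was that of c35564_g3. It stood at 292 and 128 CPM (reads scaled by library size with TMM factors) in Cd-treated roots A and B, against 3.93 and 4.21 CPM in untreated roots A and B. These are 404 and 230 reads with Cd, against 5 and 11 reads without. The lower treated library was still far above both untreated libraries, and the means were 210 ± 115 CPM with Cd and 4.07 ± 0.195 CPM without (SD, n = 2 each). Its log2 fold change was 5.64 (SE 0.48, edgeR adjusted p = 0.000333, higher in 2 of 2 treated libraries), and per length it reached 215 TPM with Cd, against 3.73 TPM without.

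The risen transcript with the most reads, c35564_g2, belongs to the same component. It had 328 and 257 CPM in Cd-treated roots, against 75.5 and 74.6 CPM in untreated roots. The untreated libraries were nearly equal and both treated ones were over them, with means of 292 ± 50.7 CPM with Cd and 75.01 ± 0.636 CPM without (SD, n = 2 each). The log2 fold change was 1.96 (SE 0.21, edgeR adjusted p = 0.000333). Another cluster of the component, c35564_g1, had a log2 fold change of 1.91 (SE 0.44) that did not pass (edgeR adjusted p = 0.301), with 44 and 32 reads in Cd-treated roots, against 12 and 12 in untreated roots. Reads that fit several clusters of 1 component can be divided among them by estimate, which would leave the levels of single clusters uncertain. How far this holds for c35564 was not tested, and the component as a whole had a log2 ratio of 2.61.

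Among transcripts that fell, the largest change was that of c28982_g1, with 3.61 and 1.67 CPM in Cd-treated roots, against 84.9 and 52.8 CPM in untreated roots. The reads were 5 and 3 with Cd, against 108 and 138 without, and the means were 2.64 ± 1.37 CPM with Cd and 68.8 ± 22.7 CPM without (SD, n = 2 each). It is the only cluster of its component, so no reads were divided within a component. The log2 fold change was -4.70 (SE 0.45, edgeR adjusted p = 0.000333, lower in 2 of 2 treated libraries).

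The fallen transcript with the most reads was c35177_g2, at 45.5 and 33.5 CPM in Cd-treated roots, against 476 and 390 CPM in untreated roots. Its log2 fold change was -3.46 (SE 0.23), and its edgeR adjusted p of 1.15e-05 was the smallest of the 17214. Its means were 39.5 ± 8.48 CPM with Cd and 433 ± 60.2 CPM without (SD, n = 2 each), or per length 32.8 TPM with Cd and 317 TPM without. Another cluster of this component, c35177_g3, had a log2 fold change of 0.53 (SE 0.41, edgeR adjusted p = 1), with 17 and 49 reads in Cd-treated roots, against 21 and 32 in untreated roots. The cluster c35177_g2 held 93.0% of the component's root reads, and the component as a whole had a log2 ratio of -2.90. Each of these 4 transcripts lost its call with limma on log2(TPM + 0.1), where their adjusted p-values were 0.0581 to 0.219.

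**Figure D2:**
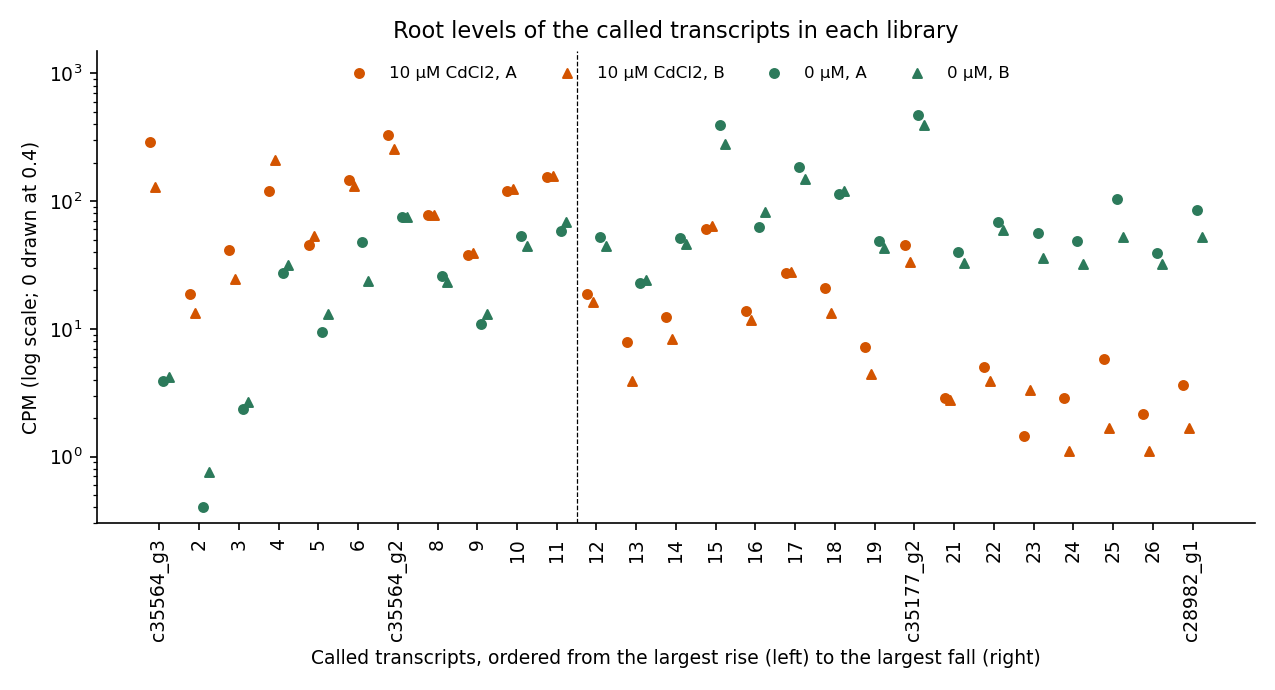
CPM (log scale, 0 drawn at 0.4) of each called transcript in the 4 root libraries of Sedum plumbizincicola, Cd-treated in orange and untreated in green, with circles for library A and triangles for B. Transcripts run from the largest rise to the largest fall, numbered by this order unless named, and the dashed line divides the 11 that rose from the 16 that fell.

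The falls had the larger median size. The median log2 fold change was 2.02 among the 11 risen transcripts (interquartile range 1.65 to 3.04, range 1.29 to 5.64) and -3.22 among the 16 fallen ones (interquartile range -4.19 to -2.50, range -4.70 to -1.45). For all 17214 it was 0.00 (interquartile range -0.22 to 0.24), and the 5th and 95th percentiles were -0.63 and 0.70. Of the rises 6 were 4-fold or more and 3 of these 8-fold or more. Of the falls 15 were 4-fold or more and 8 of these 8-fold or more. These sizes describe transcripts picked for their difference in the same 4 libraries.

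Counted by size alone, differences in both directions were far more frequent than calls, and size alone does not show a response to Cd. At 2-fold or more 354 were higher and 347 lower with Cd, 225 and 240 of them with a mean root level under 5 CPM. At 4-fold or more 71 were higher and 116 lower. Where the groups also did not overlap, 283 were higher by 2-fold or more (1.64%) and 241 lower (1.4%).

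Sizes in the separate A and B pairs were as follows, and since the same 4 libraries chose the 27, a like size in both pairs is partly set by the choice. The log2 ratio ran from 1.15 to 5.85 in pair A and from 1.20 to 4.59 in pair B for the rises. For the falls it ran from -4.47 to -1.40 in pair A and from -4.25 to -1.39 in pair B. The gap between the pairs had a median of 0.34 for rises and 0.33 for falls, and reached 1.25 and 1.43. Across all 17214 transcripts the ratios of the pairs had a Pearson correlation of 0.20 (Spearman 0.20), and 0.37 across the 8993 with at least 20 CPM. These correlations run across transcripts of the same 4 libraries, which are not independent points.

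Calls were made at middle and high read abundance. Of the 2047 transcripts with a mean root level under 5 CPM, 0 were called by edgeR. At an unadjusted p under 0.05 they held 49 higher and 38 lower ones, and at 2-fold or more 225 higher and 240 lower. The share called was 0.081% of 6174 transcripts from 5 to 20 CPM, 0.235% of 7229 from 20 to 100 CPM and 0.283% of 1764 at 100 CPM or more. The precision moved with it. The median SE of the log2 fold change was 0.69 under 5 CPM, 0.41 from 5 to 20 CPM, 0.26 from 20 to 100 CPM and 0.21 from 100 CPM. The smallest called change was 2.03 on the log2 scale from 5 to 20 CPM, against 1.32 and 1.29 in the higher classes. No change under 4-fold was called in a transcript under 20 CPM at this depth.

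Per length, the risen transcripts averaged between 22.6 and 227 TPM in Cd-treated roots (median 68.8), against 0.65 to 56.3 TPM in untreated roots (median 14.7). The fallen ones averaged between 2.00 and 36.5 TPM in Cd-treated roots (median 6.67), against 23.2 to 317 TPM in untreated roots (median 71.6). Summed, the 11 risen transcripts had 1380 and 1215 CPM in Cd-treated roots, against 315 and 300 CPM in untreated roots. The 16 fallen ones had 238.2 and 198.6 CPM in Cd-treated roots, against 1846 and 1473 CPM in untreated roots. Both sums describe the choice of the lists. The median length was 1019 bases for risen, 827 bases for fallen and 1276 bases for all tested transcripts.

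Sums over whole components were set beside the changes of the single clusters. In 27 of 27 cases the component total moved in the direction of the cluster. The total includes the cluster itself, so a like direction was largely set in advance and is no separate evidence. In 2 cases the component total moved by less than 2-fold, with a log2 ratio of 0.37 where the risen transcript itself had 1.64, and -0.73 where the fallen transcript itself had -2.53. Of the 27, 8 were the only cluster of their component and 16 held at least 90% of its root reads.

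Most fallen transcripts were higher in roots than in shoots of untreated plants, and fewer of the risen ones were. In untreated Sedum plumbizincicola 4 of the 11 risen transcripts were called higher in roots than in shoots, 1 higher in shoots and 6 in neither organ (edgeR, same fit). In Cd-treated plants all 11 were called higher in roots. Of the 16 fallen transcripts 14 were called higher in untreated roots and 2 higher in untreated shoots. With Cd 13 were called higher in roots and 3 higher in shoots. Among all tested transcripts 25% were higher in untreated roots and 26.1% in untreated shoots, and 23.8% and 24.2% in Cd-treated roots and shoots. These organ contrasts use the same root libraries as the Cd contrast, so the classes are set side by side and are no separate evidence.

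Single transcripts changed organ class between the doses. The risen transcript marked 3 in the plot of levels by library had 41.1 and 24.6 CPM in Cd-treated roots, against 2.36 and 2.68 CPM in untreated roots. Its root-to-shoot log2 difference was 1.78 with Cd and -2.29 without. The fallen transcript marked 15 there had 60.6 and 63.6 CPM in Cd-treated roots, against 394 and 279 CPM in untreated roots. Its root-to-shoot log2 difference was -0.85 with Cd and 1.36 without. Both transcripts were called in opposite organs at the 2 doses.

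**Figure D3:**
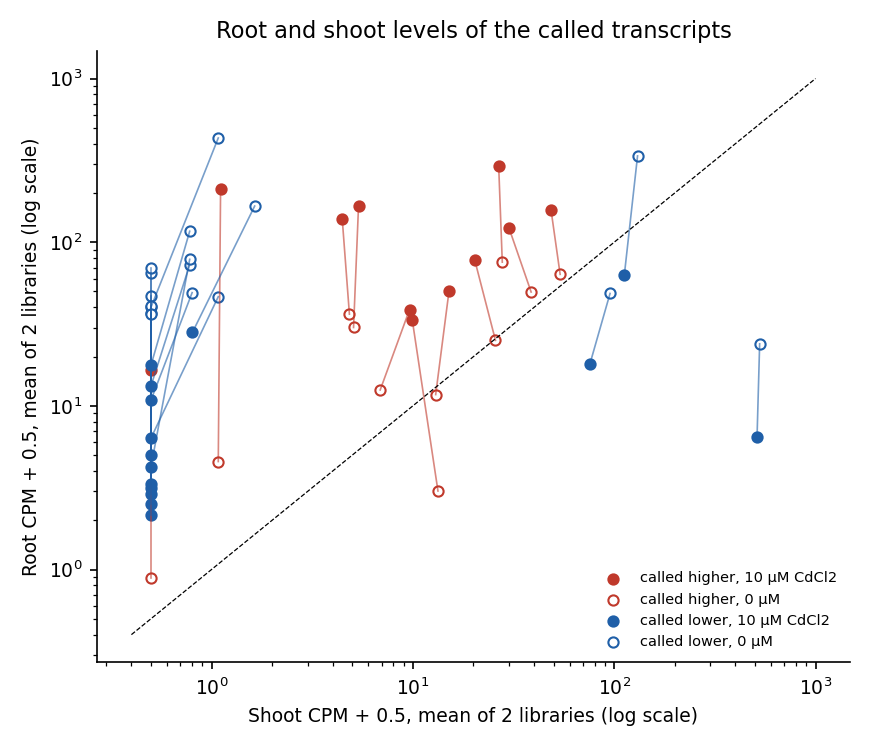
Mean root CPM against mean shoot CPM of Sedum plumbizincicola (2 libraries each, 0.5 added, log scales) for the 11 risen (red) and 16 fallen (blue) transcripts, filled with 10 µM CdCl2 and open with 0 µM, with a line joining both doses of a transcript. The dashed line marks equal levels, and most fallen transcripts stand at the left edge with few or no shoot reads.

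Most of the fallen transcripts had few or no shoot reads. Of the 16, 13 had at most 5 reads over the 4 shoot libraries, and 6 of these had 0, against 3.2% of all tested transcripts with at most 5. A count of 0 allows up to 3 reads, or 1.67 to 1.83 CPM in a shoot library. Of the 11 risen transcripts 9 had at least 10 shoot reads, against 95.7% of all tested.

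In shoots none of the 27 passed the test, but 13 fallen and 2 risen transcripts had at most 5 shoot reads, too few to show a change. The log2 fold change of the risen transcripts in shoots was between -0.44 and 0.51 for the 9 with at least 10 shoot reads (median -0.13, with 3 above 0 and 6 below), and -0.33 to -0.04 for the 3 fallen transcripts with such reads. Of these 12, 0 were called (edgeR, smallest adjusted p = 1) and 0 had an unadjusted p under 0.05. Among all 17214 transcripts 0 were called in shoots (0%), with 410 at an unadjusted p under 0.05 (2.38%). For c35564_g2 the shoots held 30.4 and 21.9 CPM with Cd, against 25.1 and 29.5 CPM without.

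Whether the response in roots differed from that in shoots was tested in the same edgeR fit. The difference was called for 0 of 17214 transcripts (0%), and DESeq2 called 2. Without adjustment 459 had a p under 0.05 (2.67%). The lowest adjusted p, 0.0538, was that of the fallen transcript that changed organ class. The 9 risen transcripts with at least 10 shoot reads all had an unadjusted p under 0.05 for the difference, with adjusted p-values from 0.0744 upward. Their change was more positive in roots than in shoots by 1.13 to 4.06 on the log2 scale. The root libraries that chose them are part of this difference. For the 1 risen and 6 fallen transcripts with 0 shoot reads the difference could not be estimated. They are among the 2 risen and 13 fallen ones with at most 5 shoot reads, too few to inform on the difference. For c35177_g2, 0 and 0 shoot reads with Cd against 1 and 1 without gave a shoot log2 fold change of -3.17 (SE 1.59). That no single transcript passed in this fit does not show that the responses were alike, and edgeR without a low-count filter called 4.

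Roots of Sedum alfredii gave a reading from other plants, with 1 library a dose and no test. All 11 risen transcripts were higher with Cd there too, against 51.1% of all tested, and 6 of them at least 2-fold, against 1.99%. Their median log2 ratio was 1.11 (range 0.60 to 3.60), against 0.01 for all tested. The 95% exact counting interval of the ratio lay above 1 for each of the 11, against 10.7% of all tested, and covers counting error only. The highest of these ratios belongs to a transcript with 44 reads in the Cd-treated root library and 2 in the other 3 libraries, so it reached the minimum of 10 reads through the library where it is high. The other 10 reached it without that library, and their median log2 ratio was 1.01 (range 0.60 to 2.30). Since c35564_g2 and c35564_g3, both among these other 10, share a component, all 11 risen transcripts lie in 10 components.

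For c35564_g3 the Sedum alfredii roots held 4919 reads with Cd and 851 without, a library-scaled ratio of 4.92 (exact counting interval 4.58 to 5.30). For c35564_g2 they held 1820 reads with Cd and 923 without, a ratio of 1.68 (1.55 to 1.82). In its shoots c35564_g3 had 5 reads with Cd and 2 without, so it was at least 4-fold higher in roots than in shoots of Sedum alfredii at both doses.

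The fallen transcripts were divided in Sedum alfredii roots. Of the 16, 11 were lower with Cd (48.4% of all tested) and 9 of them at least 2-fold (2.19%), while 5 were higher, 1 of them at least 2-fold. The counting interval lay below 1 for 8 (11.2% of all tested), above 1 for 3 (10.7%) and on both sides of 1 for 5. Of the 16, 8 did not reach the minimum of 10 reads without the untreated Sedum alfredii root library, so for them the rule that admitted them favours a lower reading with Cd, and their ratios are a description only. Of the other 8, 4 were lower with Cd, against 48.1% of the 16934 tested transcripts that reached the minimum without that library. All 4 had an interval below 1, against 11.2% of the 16934. The remaining 4 were higher, 3 of them with an interval above 1, against 1842 of the 16934. For c28982_g1 there were 6 reads with Cd and 29 without, a ratio of 0.176 (exact counting interval 0.0598 to 0.432), and it is 1 of the 8 that needed the untreated root library to be admitted. For c35177_g2 there were 3 reads with Cd and 8 without, too few to place the ratio on either side of 1 (interval 0.0546 to 1.33), and the same holds for its admission.

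**Figure D4:**
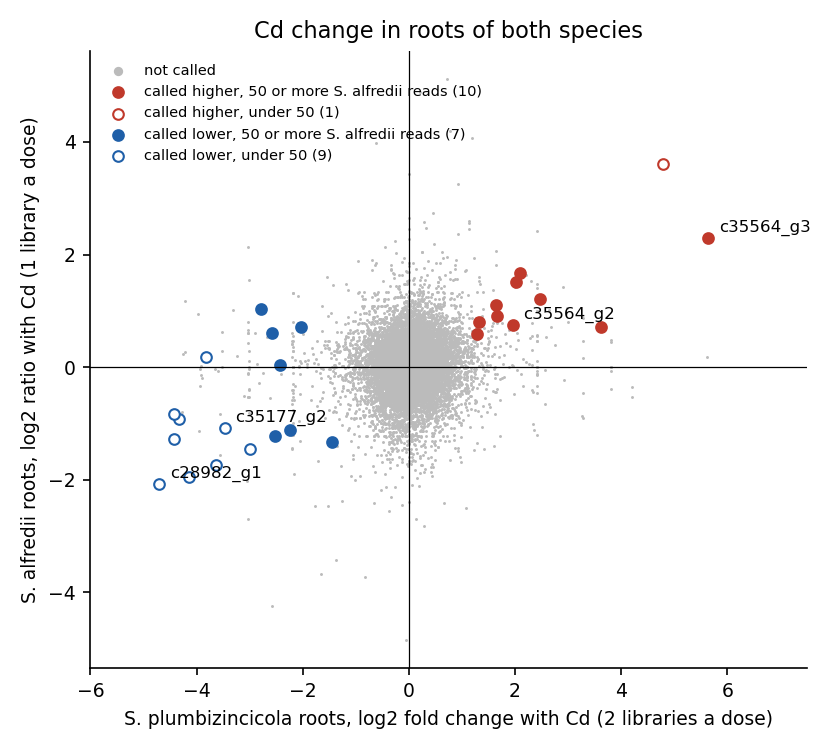
Log2 ratio with Cd in Sedum alfredii roots (1 library a dose, prior count 2) against the log2 fold change with Cd in Sedum plumbizincicola roots (2 libraries a dose) for all 17214 tested transcripts (grey), with the 11 risen in red and the 16 fallen in blue. Open symbols had under 50 reads over the 4 Sedum alfredii libraries, and all 11 risen transcripts lie above 0 on the vertical axis while the fallen ones lie on both sides.

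The fallen transcripts were concentrated near the lower limit of Sedum alfredii reads that defined the shared set. Of the 16, 9 had under 50 reads over the 4 Sedum alfredii libraries, against 10% of all tested transcripts and 1 of the 11 risen. These 9 had a median log2 fold change of -4.14, against -2.43 for the other 7. All 9 had at most 5 shoot reads in Sedum plumbizincicola, against 10.4% of the 1730 tested transcripts with under 50 Sedum alfredii reads. Among the other 7, 4 had so few shoot reads.

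The share called lower was 0.76% of 526 transcripts with 10 to 19 Sedum alfredii reads and 0.415% of 1204 with 20 to 49. It was 0.0467% of 4283 with 50 to under 200, 0.0368% of 8148 with 200 to under 1000 and 0.0655% of 3053 with 1000 or more. The share called higher was 0%, 0.0831%, 0%, 0.0491% and 0.197% in the same order. A fit limited to transcripts with at least 50 Sedum alfredii reads called 10 higher and 7 lower, all 17 among the 27. The larger number of falls than of rises was therefore not kept under that limit, and both c28982_g1 and c35177_g2 lie outside it, with 36 and 11 Sedum alfredii reads.

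**Figure D5:**
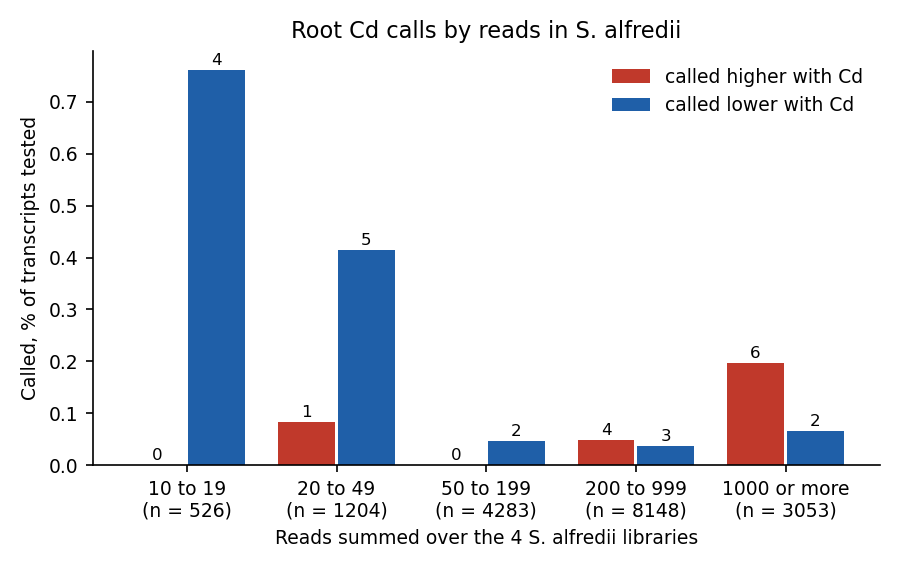
Share of tested transcripts called higher (red) or lower (blue) in Cd-treated roots of Sedum plumbizincicola, in 5 classes of reads summed over the 4 Sedum alfredii libraries, with the number called above each bar and the number tested under it. The bars for lower transcripts are tallest in the classes with the fewest Sedum alfredii reads, with 4 and 5 calls.

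A fit of the whole table of 19935 transcripts shows both sides of the limit. Of 273 transcripts with 10 to 14 Sedum alfredii reads, 4 were called lower (1.47%) and 1 higher, and of 248 with 15 to 19 reads 0 were called lower. Of 339 with 5 to 9 reads, just outside the limit, 2 were called lower (0.59%) and 1 higher, and of 468 with 1 to 4 reads 5 were called lower (1.07%). Of 1963 with 0 such reads, 366 were called lower (18.6%) and 2 higher. Over all 19935 transcripts 1.98% were called lower and 0.105% higher. Where these transcripts come from was not tested, since the files hold no sequence. In root tissue as a whole, fewer cells of a type and less RNA in each cell cannot be told apart.

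The 7 fallen transcripts with at least 50 Sedum alfredii reads had log2 fold changes between -2.78 and -1.45. In Sedum alfredii 4 of them were at least 4-fold higher in roots than in shoots at both doses, 2 at least 4-fold higher in shoots and 1 neither. The 9 with under 50 reads were all in neither class, so of all 16 fallen transcripts 4 were in the root class, 2 in the shoot class and 10 in neither. With so few reads and a prior count of 2, a 4-fold ratio at both doses is hard to reach. For these 9, neither is therefore no sign of equal levels in both organs. In Sedum alfredii c28982_g1 had 29 root reads and 0 shoot reads without Cd, and 6 and 1 with Cd. Of the 11 risen transcripts 4 were at least 4-fold higher in Sedum alfredii roots and 7 neither, against 7.17% of all tested for roots and 9.12% for shoots. This organ reading comes from libraries that the Cd contrast did not use, but the same 4 libraries set the read minimum. The 4 fallen transcripts of the root class had 0 to 4 reads in each Sedum alfredii shoot library. They reached the minimum through the root libraries, where they are high, and so did c35564_g3, with 5 and 2 shoot reads. For these the rule that admitted them favours the root class, which is a description only.

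Shared transcripts with a strong organ preference in Sedum alfredii had median changes near 0. The median Cd log2 fold change in Sedum plumbizincicola roots was 0.03 for the 1235 that were higher in Sedum alfredii roots (interquartile range -0.20 to 0.31). It was 0.00 for the 1570 higher in its shoots (-0.36 to 0.28) and 0.00 for the remaining 14409 (-0.21 to 0.23). The shoot-preferring class had the wider spread and a median root level of 6.02 CPM, against 28.6 CPM for the root-preferring class, and the part of the level in the spread was not tested.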

How the data were processed

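Root and shoot RNA was read by Illumina sequencing, per the labels. FastQC, Bowtie and RSEM appear, without versions, in the submitters' processing notes, and how the clusters were assembled is not given there. The deposited tables hold, per the file headers, a length, an expected count and a TPM for each cluster. Expected counts were rounded to whole counts (98.7% to 99.4% of values above 0 already were whole). The deposited TPM, which sum to an equal total per library, served for levels per length and in an alternative. A sample of pooled roots and shoots from another platform was not analysed here.

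Shared transcripts had at least 10 rounded counts over the 4 Sedum alfredii libraries (29221, of which 17214 passed filterByExpr). edgeR 4.0.16 in R 4.3.3 (TMM, robust quasi-likelihood, two-sided, Benjamini-Hochberg) was fitted by group to the 8 Sedum plumbizincicola libraries, leaving 4 residual degrees of freedom, at a common dispersion that gives a biological variation of 0.172 (coefficient). DESeq2 1.42.0, limma 3.58.1 on log2(TPM + 1) or log2(TPM + 0.1), a fit of the 4 root libraries alone, other filters and scalings, a replicate block and leaving out each library were alternatives. CPM used TMM factors within each species, so levels are not compared between species, and log2 ratios in Sedum alfredii used a prior count of 2. The limit that 0 reads allow (3 counts) was 1.15 to 2.36 CPM in root libraries. Replicates varied beyond counting noise. Chi-square over degrees of freedom was 14.8 in untreated roots, against 3.41 in Cd-treated roots, 4.79 in untreated shoots and 3.05 in Cd-treated shoots. The fit pooled the spread over these groups, so the noisier untreated roots did not get a spread of their own. Intervals (95%, exact) cover counting error only. The SE given is the size of the log2 fold change over the square root of edgeR's F statistic. It is 0 where the log2 fold change is 0, and such values enter the median SE.

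The named transcripts were, in each direction, the called one with the largest change and the one with the highest mean root CPM (average log2 CPM of at least 1, groups not overlapping). Other transcripts given single values were picked after their values were seen. The members, lists and limits were chosen with earlier results of these data known. The letters A and B are not stated to mark shared plants.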

Additional observations from a re-analysis of the deposited data

Results flagged for a closer look

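Of the 16 transcripts that fell in Cd-treated roots of Sedum plumbizincicola, lower in both the A and the B pair of libraries, 5 were higher with Cd in the single Sedum alfredii root pair. Their log2 ratios in Sedum alfredii roots were 0.718, 0.037, 0.603, 1.024 and 0.179, in the order from the smallest to the largest fall. The exact counting interval of the ratio lay above 1 for the first, the third and the fourth, and included 1 for the others. The difference between the species was not tested, since Sedum alfredii has 1 library a dose.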

How the results depend on the processing

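All 27 called transcripts kept their direction in each of the 19 alternatives that measured them, 2 were called in every one that did, and 19 were called whichever single library was left out, which leaves 1 group with a lone library whose spread is taken from the other groups. The number of root Cd calls, 27 in the edgeR fit of 17214, was 7 (6 higher, 1 lower) with at least 10 counts in each of the 8 libraries, 7 (4 higher, 3 lower, 2 of them among the 27) with limma on log2(TPM + 0.1), 17 with at least 50 Sedum alfredii counts and 45 (19 higher, 26 lower) with the letter as a replicate block, all 27 among the 45. It ran from 19 to 41 when 1 library was left out. The root-minus-shoot difference, with 0 calls, had 4 without a low-count filter, 1 with at least 10 counts in each library, 2 with DESeq2, 6 with a replicate block, 1 with at least 50 Sedum alfredii counts, 1 with at least 10 Sedum alfredii root counts, and 0 to 1 when 1 library was left out. The organ contrast of untreated plants, with 8799 calls, had 5195 with at least 10 counts in each library. Of the fallen transcripts 13 had at most 5 shoot reads, so they could not enter the fit with at least 10 counts in each library. The limit of 50 Sedum alfredii counts left out 9 fallen and 1 risen transcript. Beyond the smaller number of transcripts or libraries in some fits, the cause of the shifts in the numbers of calls was not tested. The 4 root libraries alone gave 20 (6 higher, 14 lower). With at least 10 Sedum alfredii reads outside the library a reading is high in, chosen after seeing the data, the median Sedum alfredii root log2 ratio was 1.01 for 10 risen and -0.54 for 8 fallen transcripts, against 1.11 for 11 and -1.11 for 16. DESeq2 also called 27 in roots, 25 of them shared, and with size factors by median ratios the same 27 were called (11 higher, 16 lower). The named transcripts were called in all alternatives that measured them except limma on log2(TPM + 0.1). Over all alternatives adjusted p ran from 4.50e-21 to 0.219 for c35564_g3, from 5.36e-08 to 0.0606 for c35564_g2, from 2.20e-08 to 0.0581 for c28982_g1 and from 8.95e-24 to 0.0581 for c35177_g2, the highest being that of log2(TPM + 0.1) each time. On the TPM scale the median of all tested transcripts stood 0.17 (TPM + 1) or 0.18 (TPM + 0.1) above 0 on the log2 scale. Libraries with the same letter deviated together (Pearson 0.348 between the root groups, 0.101 to 0.229 for other pairs of groups), which the labels do not explain. No transcript under 5 CPM was called, and the part of depth and of 2 libraries a dose in this was not tested.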

Other observations

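Below the threshold for calls, changes of at least 2-fold in roots were compared between the species, which share no libraries. Of 354 shared transcripts that stood higher by 2-fold or more with Cd in Sedum plumbizincicola roots and 342 in Sedum alfredii roots, 35 were in both lists (9.89% and 10.2% of them), 6 of these among the called transcripts. Of 347 and 377 at least 2-fold lower, 39 were in both (11.2% and 10.3%), 9 of these called. In opposite directions were 11 (higher in Sedum plumbizincicola, lower in Sedum alfredii) and 13 (the reverse). About 2 in 100 tested transcripts entered each list (1.99% to 2.19%). Of the 35 and the 39, 21 and 28 reached 10 Sedum alfredii reads without the library in which the transcript is high, and the rest were admitted through it. The 11, the 13, the lists and the shares were not limited in this way. The counts in like and opposite directions are therefore a description only. Sedum alfredii has 1 library a dose, so no test was made of this overlap.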
